A study of Mus musculus with 2 samples.

Results

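Langerhans cells (LCs) live in the epidermis, where they are held among keratinocytes by adhesion molecules, and they loosen these contacts when they leave for the lymph node. Described here are 5 genes that are known for this life in the epidermis or used to recognise LCs, *Epcam*, *Cd207*, *Cldn1*, *Mfge8* and *Cdh1*. They were chosen by name, all 5 are listed in both expression tables, and they stand among 18049 listed genes. The data are CITE-seq, in which the mRNA of a single cell and a panel of 12 surface antibodies carrying DNA barcodes are read together. There was 1 library from naive, unimmunized B6 mice and 1 library from B6 mice immunized with OVA plus the protease papain in both rear footpads 1 day earlier. Both libraries held live cells sorted as MHCIIhi CD11c+ B220- from skin-draining lymph nodes, so that LCs were seen only after they had arrived there. The labels name popliteal nodes in the protocol of both libraries, whereas the study's methods describe the naive cells as coming from pooled skin-draining nodes, so the site of the node and immunization cannot be told apart. Cells of 1 library are not replicates, and with no replicate of either condition no p-value is given. All 95% intervals cover counting error only, and a difference between conditions has no replicate check.

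EpCAM (CD326) is an adhesion molecule of epithelia that in skin-derived dendritic cells is most abundant on LCs, and it binds and stabilises claudins, the strand-forming proteins of tight junctions, of which claudin-1, the product of *Cldn1*, is the main one of the epidermis. E-cadherin, the product of *Cdh1*, ties LCs to keratinocytes. Langerin, the product of *Cd207*, is the C-type lectin that builds the Birbeck granules of LCs and is also found on a population of dermal cDC1s. MFG-E8, the product of *Mfge8*, is a secreted bridging protein that binds phosphatidylserine on dying cells and integrins on the phagocyte.

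The EpCAM protein was read through the barcode of the CD326 antibody, and the mRNA from a gene whose promoter is shown with it. CD24, another molecule of LCs and cDC1s, could not be used, because the deposited feature list gives it the same 15 bases as CD11b. The capitals of the promoter below mark the E-box CACCTG, or CAGGTG on the other strand, to which ZEB and Snail proteins bind.
CD326 antibody barcode: acccgcgttagtatg
CD11b antibody barcode: tatatctttgccgca
CD24 antibody barcode: tatatctttgccgca
*Epcam* promoter: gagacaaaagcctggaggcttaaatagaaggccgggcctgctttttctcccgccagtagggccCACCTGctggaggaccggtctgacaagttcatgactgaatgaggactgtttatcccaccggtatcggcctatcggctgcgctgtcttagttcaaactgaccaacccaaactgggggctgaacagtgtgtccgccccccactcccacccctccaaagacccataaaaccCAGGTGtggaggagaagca

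These are the 250 bases before the RefSeq start of *Epcam* on the plus strand (GRCm38.p6, chr17:87635729-87635978), and the gene itself runs to base 87651127. The promoter is shown because both ZEB genes, *Zeb1* and *Zeb2*, were measured in these cells, with opposite differences between LCs and cDC2s (below). A Snail gene, *Snai1*, was also measured, at a low level (below). *Epcam* had 2 matches, ending 182 and 14 bases before the start. None was found in the same window of *Cd207*, *Cldn1* or *Mfge8*, the other members matched in the RefSeq promoter table. Over all 32851 promoters of that table, 17.2% held this E-box in the same window. The letters TGTGGT, a RUNX site, were found once before *Mfge8*, as in 14.0% of promoters, and GAGGAA, a core read by ETS factors, once each before *Cd207* and *Mfge8*, as in 23.3%. Both strands were searched, and a match is a run of letters and not a measured site. In the same build, *Cd207* lies on chromosome 6 (83671207 to 83677857), *Mfge8* on chromosome 7 (79133768 to 79149060), *Cdh1* on chromosome 8 (106603350 to 106670247) and *Cldn1* on chromosome 16 (26356645 to 26371839).

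Cells were grouped by the class that the authors set from the antibodies. There were 440 naive and 881 papain LCs, 578 and 235 cDC1s (the cross-presenting XCR1+ subset), and 2024 and 6190 cDC2s (the CD172a+ subset, split by CD301b into lo, int and hi). The median depth was 10767.5 and 18290 UMIs per LC, 15806.5 and 12399 per cDC1, and 14196 and 14783.5 per cDC2 (naive and papain). Levels are CPM, the UMIs of a gene per 1000000 UMIs summed over the cells of a class. The LC class was set with CD326, the product of *Epcam*, so the *Epcam* contrast between LCs and other cells describes that choice. The 3 migratory DC markers *Ccr7*, *Fscn1* and *Ccl22* summed to between 5268 and 9478 CPM in all classes. Of 6 cDC1 markers, *Xcr1* was at 16.9 and 9.44 CPM in cDC1s and under 1 CPM in LCs. The sum of the 6 parted the classes less, at 397 and 542 CPM in LCs, 625 and 863 in cDC1s and 229 and 238 in cDC2s. Most of it in LCs was *Irf8*, at 373 and 530 CPM, which was at 214 and 236 CPM in cDC2s. Of 8 keratinocyte markers *Krt10* and *Perp* were analysed, at a summed 4.33 and 2.13 CPM in LCs. The others, the defining keratins *Krt5* and *Krt14* among them, are not in the tables analysed here, so keratinocyte RNA could not be looked for through them. T cell markers summed to 146 CPM in naive cDC1s, against 20.5 in papain cDC1s and 11.3 to 26.1 in LCs and cDC2s. They are given again where they touch a result. As a background for RNA outside its cell of origin, droplets with at least 2 UMIs of *Cd3e* and *Trac* and no antibody data were used (225 naive and 229 papain T transcript droplets). In these droplets the 3 migratory DC markers summed to 1993.5 (naive) and 1171.9 CPM (papain). They were thus not free of DC RNA, and a level no higher than theirs does not show that a class lacked the gene.

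*Epcam* was at 102 CPM (95% interval 93.9 to 111) in naive LCs, 29.2 (25.8 to 32.8) in naive cDC1s and 10.3 (9.20 to 11.5) in naive cDC2s. In the papain library it was at 156 CPM (151 to 162) in LCs, 7.49 (4.75 to 11.2) in cDC1s and 4.75 (4.33 to 5.21) in cDC2s. LCs thus stood highest in both libraries, and the intervals of cDC1s and cDC2s were apart in the naive library and overlapped in the papain library. Among naive cDC2s the level was 17.9 CPM in CD301b-lo, 8.22 in CD301b-int and 6.04 in CD301b-hi cells, and the intervals of the last 2 overlapped. Among papain cDC2s it was 4.10, 5.10 and 4.79 CPM, with overlapping intervals. T transcript droplets had 11.5 CPM among the naive cells, where 1 droplet held 14 of the 24 UMIs, and 2.36 CPM in the papain library. The levels of naive CD301b-int and CD301b-hi cDC2s were no higher than this background, which rests largely on that 1 droplet. The interval of naive CD301b-lo cells overlapped that of the naive droplets (7.37 to 17.1). In the 506 naive cDC2s with the lowest CD326 antibody values (below), *Epcam* was at 0.397 CPM (0.0819 to 1.16), under the interval of these droplets.

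At least 1 *Epcam* UMI was found in 61.1% of naive LCs (56.4 to 65.7) and 70.1% of papain LCs (67.0 to 73.2), which had more UMIs per cell. With cells thinned to 8392 UMIs, which left out 127 naive and 110 papain LCs that were shallower, the shares were 51.2% and 55.0%. Of naive cDC1s 22.1% had a UMI and of papain cDC1s 4.68%, against 4.0% and 1.75% of T transcript droplets, whose median depth was 7556 and 6983 UMIs.

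*Cldn1* was ordered the same way, with lower contrast. It was at 29.0 CPM in naive LCs, 19.0 in naive cDC1s and 11.1 in naive cDC2s, and at 20.9, 7.16 and 2.64 CPM in the papain library, with no overlap of the intervals within a library. The 3 cDC2 classes lay between 10.2 and 12.6 CPM in the naive library. In the papain library they lay between 1.63 and 3.38 CPM. In 23.6% of naive and 26.9% of papain LCs there was a *Cldn1* UMI (17.3% and 14.4% after thinning), so that most LCs had none at this depth. Among T transcript droplets 0.889% of the naive had a UMI and 0 of 229 papain droplets did, where the limit of 3 counts allows a share with a UMI of up to 1.31%.

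*Cdh1* was close to the limit of detection. Naive LCs held 25 UMIs in 19 of 440 cells (4.70 CPM, 3.04 to 6.94), naive cDC1s 11 UMIs (1.16 CPM) and naive cDC2s 12 UMIs (0.387 CPM). Papain LCs held 20 UMIs in 17 of 881 cells (1.09 CPM, 0.666 to 1.68), papain cDC1s 1 UMI and papain cDC2s 7 UMIs (0.0714 CPM). LCs had the highest level in both libraries, but in the papain library the interval of cDC1s, up to 1.81 CPM, spanned that of LCs. In T transcript droplets 1 UMI was counted in each library, and these intervals reached 2.67 and 3.28 CPM, so papain LCs could not be told from the background. In CD301b-int cDC2s no UMI was counted in 659 naive or 1827 papain cells, where the same limit allows shares of cells with a UMI of up to 0.455% and 0.164%.

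*Cd207* had the largest ratio of LCs to cDC2s of the 5 in both libraries. Naive LCs were at 45.7 CPM (40.1 to 51.8), naive cDC1s at 9.16 (7.34 to 11.3) and naive cDC2s at 0.290 (0.133 to 0.551). In the papain library the levels were 58.9 (55.4 to 62.5), 5.86 (3.47 to 9.26) and 0.163 CPM (0.0933 to 0.265). Every cDC2 class of either library was under 0.4 CPM, within the interval of the T transcript droplets, which had 1 UMI per library. Of naive LCs 26.4% had a UMI and of papain LCs 36.8%, and after thinning these shares were 25% and 25.6%.

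*Mfge8* was at 657 CPM (635 to 679) in naive LCs, 405 (392 to 418) in naive cDC1s and 88.9 (85.6 to 92.3) in naive cDC2s. In the papain library LCs were at 349 CPM (340 to 357), cDC1s at 138 (126 to 152) and cDC2s at 68.7 (67.1 to 70.3). Among cDC2s it was higher with more CD301b. From CD301b-lo over CD301b-int to CD301b-hi cells it was at 61.1, 86.8 and 113 CPM in the naive library and at 50.7, 57.3 and 81.7 CPM in the papain library, with no overlap of neighbouring intervals. Of naive LCs 87.5% and of papain LCs 87.4% had a UMI (83.0% and 74.4% after thinning). T transcript droplets were at 53.7 CPM in the naive library, close to naive CD301b-lo cDC2s, and at 17.1 CPM in the papain library.

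**Figure D1:**
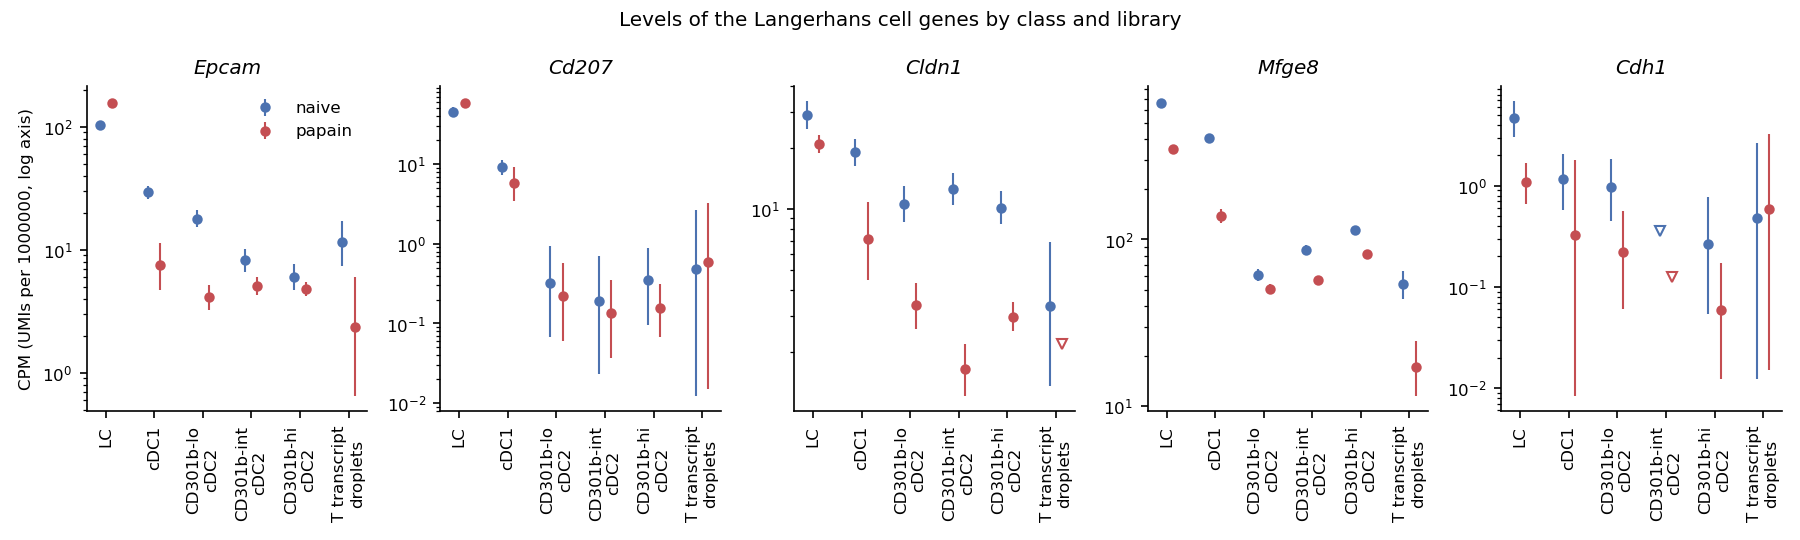
Levels of the 5 genes in CPM (UMIs per 1000000, log axes that differ between panels) for each class in the naive (blue) and papain (red) library, with T transcript droplets as background; points are 1 library each, bars are exact Poisson 95% intervals, and open triangles mark the upper limit where no UMI was counted. LCs are the highest class in every panel and library, from 657 CPM of *Mfge8* to 1.09 CPM of *Cdh1*.

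To compare classes within a library, the log2 ratio of CPM plus 1 was used, which understates differences of low genes. A gene was called when it differed at least 2-fold and reached 50 CPM in the higher group. In naive LCs against cDC2s, *Epcam* (3.19, 3.0 to 3.38) and *Mfge8* (2.87, 2.80 to 2.94) were called higher, beside 2.07% of 2705 genes that were higher and 5.69% that were lower. In the papain library *Epcam* (4.77, 4.65 to 4.90), *Mfge8* (2.33, 2.28 to 2.38) and *Cd207* (5.69, 5.55 to 5.78) were called higher, beside 2.01% of 2743 genes that were higher and 1.90% that were lower. *Epcam* and *Cd207* reached the floor only through LCs, so once they passed it their call was fixed, and nothing is read from it. *Mfge8* was above the floor in cDC2s too. Those under the floor were *Cd207* in the naive library, with a ratio of 5.18, *Cldn1* with 1.31 and 2.59, and *Cdh1* with 2.04 and 0.96. The median over the 5 members, taken without the floor, was 2.87 and 2.59, and over all genes above the floor it was -0.04 in both libraries. These medians are over unlike sets of genes, and the members include *Epcam* and *Cd207*, so nothing is read from them.

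Against cDC1s the difference of LCs was smaller in the naive than in the papain library for 4 of the members. *Epcam* was higher in LCs by 1.78 (naive) and 4.21 (papain), *Cd207* by 2.20 and 3.13, *Cldn1* by 0.59 and 1.43, *Mfge8* by 0.70 and 1.33, and *Cdh1* by 1.40 and 0.66. In the naive library *Epcam* was called and *Mfge8* was not, beside 4.56% of genes called higher. *Epcam* passed the floor only through LCs, so nothing is read from its call. The call of *Epcam* was lost with the classes remade by a mixture of 3 Gaussians on XCR1, CD326 and CD172a, where the ratio was 0.72. In the papain library *Epcam*, *Cd207* and *Mfge8* were called, beside 5.63% of 2789 genes. Here too *Epcam* and *Cd207* passed the floor only through LCs, and *Mfge8* was above it in both classes. Of the genes called in that comparison 54.0% were higher in LCs, and 43.4% after scaling to the median ratio of genes, which moved the median of all genes from 0.06 to -0.06. Whether the libraries differ in these contrasts could not be tested with 1 library each.

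All 5 genes were also higher in cDC1s than in cDC2s in both libraries. The log2 ratios were 1.42 and 0.56 for *Epcam*, 2.98 and 2.56 for *Cd207*, 0.72 and 1.16 for *Cldn1*, 2.17 and 1.00 for *Mfge8*, and 0.64 and 0.31 for *Cdh1*. For *Epcam* and *Cdh1* in the papain library the interval included 0. Only *Mfge8* passed the floor of 50 CPM. It was called in the naive library, beside 5.14% of genes, and fell just short of 2-fold in the papain library, where 3.86% of genes were called higher. Of the genes called there 42.1% were higher in cDC1s, and 53.4% after the same scaling, which moved the median of all genes from -0.10 to 0.02. With the mixture classes, *Mfge8* in naive LCs was at -0.31 against cDC1s in place of 0.70. That LC component held 696 cells, of which 359 were LCs by the authors' class.

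Between the libraries, *Epcam* was higher in papain than in naive LCs by 0.61 on the log2 scale (0.48 to 0.74), and *Cd207* by 0.36 (0.16 to 0.56). *Mfge8* was lower by 0.91 (log2 ratio -0.91, -0.97 to -0.85), *Cldn1* was at -0.45 (-0.71 to -0.18) and *Cdh1* at -1.45 (-2.01 to -0.83). None of the 3 members above the floor reached 2-fold in either direction, beside 5.17% of 2747 genes that were higher and 1.93% that were lower. The median over all genes tested was 0.12. In cDC1s 3 of the genes were lower in the papain library. *Epcam* was at -1.83 (-2.42 to -1.27), *Mfge8* at -1.54 (-1.69 to -1.40), *Cldn1* at -1.29 (-1.90 to -0.71), and the intervals of *Cd207* (-0.57) and *Cdh1* (-0.70) included 0. Only *Mfge8* passed the floor in cDC1s and it was called lower, beside 2.43% of 2637 genes that were higher and 3.19% that were lower. In cDC2s *Cldn1* was lower in the papain library (-1.73, -1.92 to -1.54), as were *Epcam* (-0.97, -1.16 to -0.79) and *Cdh1* (-0.37, -0.55 to -0.14), while the interval of *Cd207* (-0.15, -0.40 to 0.08) included 0. *Mfge8* (-0.37, -0.43 to -0.30) was the only one above the floor and was not called, beside 2.79% of genes that were higher and 3.44% that were lower. Of those called genes 44.8% were higher, and 32.0% after scaling, with which *Epcam* passed 2-fold in cDC2s. The background of T transcript droplets was lower in the papain library as well, with *Epcam* at 11.5 CPM in naive and 2.36 in papain droplets, *Mfge8* at 53.7 and 17.1, and *Cldn1* at 3.36 and 0. The part of this background in the lower levels of papain cDC1s and cDC2s was not tested. T cell markers were at 146 CPM in naive and 20.5 CPM in papain cDC1s. In cells with no UMI of *Cd3e*, *Trac*, *Cd79a* or *Cd79b* the ratios of the 5 members moved by between -0.22 and 0.25. Of the genes called in cDC1s 43.2% were higher in the papain library, and 60.5% in these cells.

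**Figure D2:**
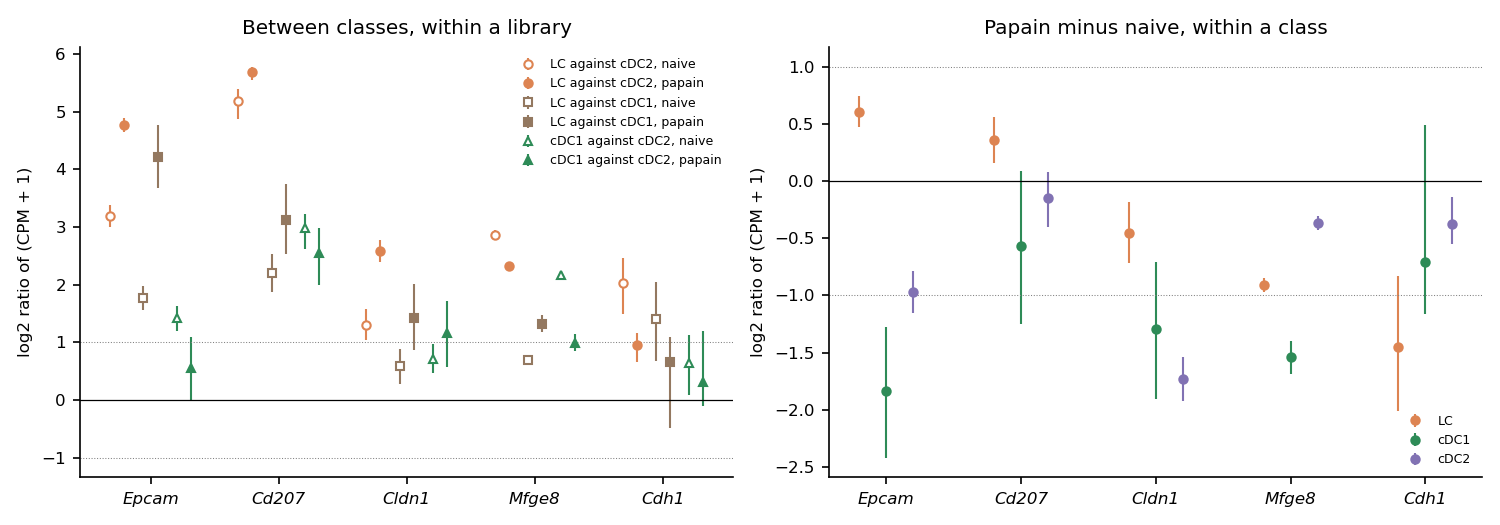
Log2 ratios of CPM plus 1 for the 5 genes, on the left between classes within the naive (open) and papain (filled) library and on the right papain minus naive within a class; bars are exact 95% counting intervals, the solid line is 0 and dotted lines mark 2-fold. On the right, *Epcam* lies at 0.61 in LCs and at -1.83 and -0.97 in cDC1s and cDC2s.

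The CD326 antibody value compares the antibody count with the geometric mean of the 12 antibodies of the cell. An offset was added before the natural log was taken, so every CD326 value was positive. A positive value therefore need not lie above that mean. Across classes, the CD326 value of the same cells followed the mRNA. Its median was 3.42 in naive and 3.40 in papain LCs, 1.64 and 0.436 in cDC1s, and 0.447 and 0.395 in cDC2s. So cDC1s of the naive library lay between LCs and cDC2s, while those of the papain library lay beside cDC2s, as they did for *Epcam* mRNA. Other scales of the antibody gave another picture of LCs. The median LC had 1174 CD326 counts if naive and 1709 if from papain-treated mice, of a median of 8765.5 and 7670 antibody counts. CD326 thus took a median of 13.8% of the antibody counts of naive and 24.2% of those of papain LCs. In cDC1s it took 2.98% and 0.639%, and in cDC2s 0.190% and 0.227%.

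Within a class, cells were split into 4 equal bins by CD326. Among naive LCs *Epcam* was at 69.6, 126, 94.6 and 130 CPM from the lowest to the highest bin, and the interval of the lowest bin overlapped only that of the third. Among papain LCs it was at 79.1, 130, 213 and 273 CPM, with no overlap of neighbouring intervals. With bins by the share of antibody counts in place of the deposited value, naive LCs were at 85.3, 108, 113 and 105 CPM, with overlapping intervals of the lowest (70.9 to 102) and the highest bin (88.3 to 124), and papain LCs at 52.9, 136, 170 and 316 CPM. For the deposited value, leaving out the 1 papain LC that held 68 *Epcam* UMIs gave 256 CPM in the highest bin. Of the other LC genes, *Cd207* and *Mfge8* were lower in the same low bin of both libraries. *Cd207* was at 18.3 CPM in the lowest and 63.7 in the highest bin of naive LCs, and at 29.3 and 83.7 CPM in papain LCs. *Mfge8* was at 506 and 737 CPM in these bins of naive LCs and at 247 and 454 CPM in papain LCs. *Cldn1* was at 20.1 and 28.8 CPM in naive LCs, with overlapping intervals, and at 12.9 and 28.6 CPM in papain LCs. The intervals of *Cdh1* overlapped between these bins in both libraries. The 5 cDC2 markers *Sirpa*, *Irf4*, *Mgl2*, *Itgam* and *Cd209a* went the other way, with a sum of 126 CPM in the lowest and 48.5 in the highest bin of naive LCs, and 128 and 41.4 CPM in papain LCs. Depth went with it in the papain library, where the lowest bin had a median of 27918 UMIs and held 79 of the 152 papain LCs among the deepest 5% of cells, against 13679 UMIs and 9 cells in the highest. Without these deepest cells *Epcam* still was at 68.1 CPM in the lowest and 265 in the highest bin. The part of mixed droplets in this gradient was not tested.

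*Epcam* was spread unevenly among cDC1s and cDC2s as well. Naive cDC1s had 4.58 CPM in the lowest and 68.2 CPM (58.3 to 79.4) in the highest CD326 bin, and papain cDC1s 1.35 and 22.4 CPM (13.5 to 35.0). *Mfge8* went with it, from 258 to 598 CPM in naive and from 66.2 to 254 CPM in papain cDC1s. The lowest naive cDC1 bin fell to 1.82 CPM of *Epcam* without the deepest 5% of cells. Naive cDC2s ranged from 0.397 CPM (0.0819 to 1.16) to 29.3 CPM (25.8 to 33.2) and papain cDC2s from 1.44 to 12 CPM. In the highest bin of naive cDC2s *Cldn1* was at 20.1 CPM, against 6.75 in the lowest, whereas *Cd207* was at 0.59 CPM, and 0.128 without the deepest cells. As a group, these CD326-high cDC2s therefore carried *Epcam* and *Cldn1* with *Cd207* near 0. Over single cells Pearson's r of CD326 and log2 *Epcam* was 0.08 and 0.31 in LCs (440 and 881 cells), 0.37 and 0.29 in cDC1s (578 and 235), and 0.41 and 0.25 in cDC2s (2024 and 6190), naive and papain. Spearman's rho was 0.09 and 0.35, 0.37 and 0.23, and 0.32 and 0.17. These are descriptions of cells that share a library and in which 1 UMI often decides the value.

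**Figure D3:**
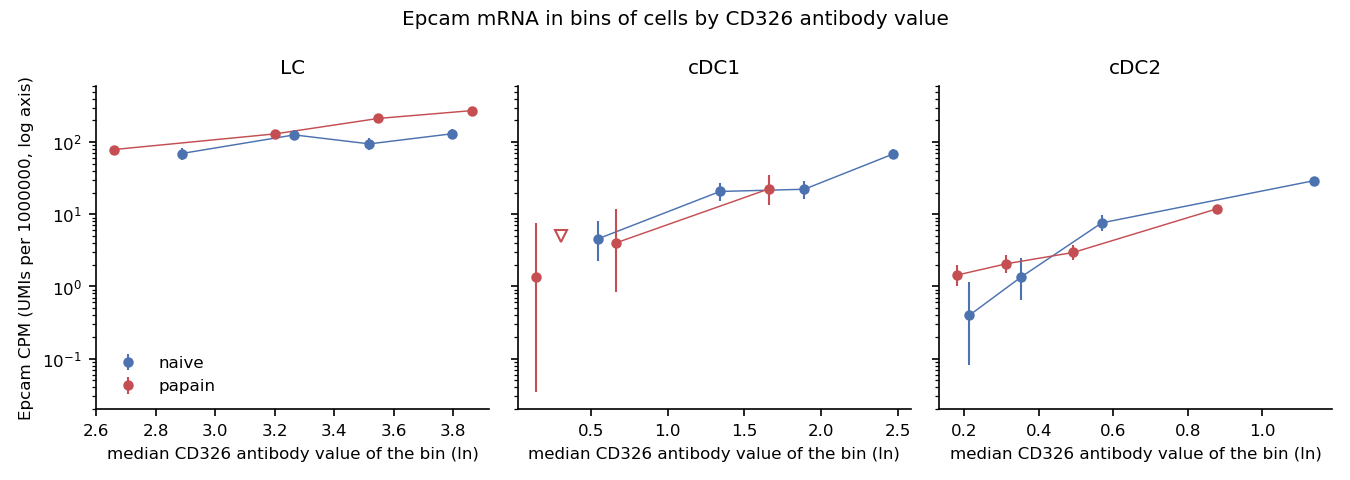
*Epcam* CPM (log axis) in 4 equal bins of LCs, cDC1s and cDC2s by CD326, against the median CD326 antibody value of the bin (natural log scale, ranges differ between panels), in the naive (blue) and papain (red) library; bars are exact Poisson 95% intervals and the open triangle is the upper limit where no UMI was counted. *Epcam* goes from 79.1 to 273 CPM over papain LCs and from 0.397 to 29.3 CPM over naive cDC2s.

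Langerin-positive cDC1s are known from the dermis as CD103+ cells. A *Cd207* UMI was found in 49 of 578 naive cDC1s (8.48%, 6.34 to 11.1) and 13 of 235 papain cDC1s (5.53%, 2.98 to 9.27), against 0.444% and 0.437% of T transcript droplets. *Mfge8*, *Epcam* and, in the naive library, *Cldn1* were higher in the cells with *Cd207*, with no overlap of the intervals. *Mfge8* was at 715 CPM (663 to 770) with and 369 CPM (357 to 382) without a *Cd207* UMI in the naive library, and at 301 (230 to 387) and 127 CPM (114 to 141) in the papain library. *Epcam* was at 54.8 and 26.3 CPM in naive and at 30.1 and 5.92 CPM in papain cDC1s. *Cldn1* was at 37.2 and 16.9 CPM in naive cDC1s, and at 10.0 (1.22 to 36.2) and 6.96 CPM in papain cDC1s, where the intervals overlapped. No *Cdh1* UMI was counted in the cells with *Cd207*, and the others had 1.29 CPM (naive) and 0.348 CPM (papain). The mRNA of the cDC1 marker *Xcr1* was at 40.4 CPM with and 14.2 without a *Cd207* UMI in the naive library, and at 5.02 (0.127 to 28.0) and 9.75 CPM in the papain library. The median XCR1 antibody value was 1.30 and 1.25 in naive and 1.06 and 1.13 in papain cDC1s. The cells with *Cd207* were deeper, with a median of 19208 against 15543 UMIs in the naive and 14901 against 12339.5 in the papain library. The part of mixed droplets in these differences was not tested.

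The CD103 antibody did not part the naive cells with and without *Cd207* (medians 1.24 and 1.30), and was 1.08 and 0.812 in the papain library. Over 4 bins of naive cDC1s by CD103, *Cd207* was at 10.2, 12, 8.42 and 6.10 CPM with overlapping intervals. Over the same bins of papain cDC1s it was at 1.44, 2.35, 8.88 and 10.8 CPM, from 1 to 8 UMIs each, also with overlapping intervals. *Mfge8* was graded in papain cDC1s, from 70.5 CPM (52.1 to 93.2) in the lowest to 219 CPM (187 to 256) in the highest CD103 bin. In naive cDC1s it ranged from 355 to 434 CPM.

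The 5 genes were rarely all seen in 1 LC. Of naive LCs 21 had none of them and 200 had 2, the most frequent number, and of papain LCs 43 had none and 306 had 2. All 5 were detected in 1 naive and 0 papain LCs, and 4 of them in 24 and 100. *Epcam* and *Cd207* were found together in 17.5% of naive LCs, beside a product of the single shares of 16.1%. In papain LCs they were together in 31.2%, beside a product of 25.8%, and after thinning in 17.4%, beside 14.1%. *Cd207* and *Cldn1* were together in 13.7% of papain LCs, beside 9.89%. *Epcam* and *Cldn1* were together in 13.6% of naive LCs, beside 14.5%, and in 20.9% of papain LCs, beside 18.9%. Depth moves both shares of a pair, and the cells of the lowest CD326 bin had less of each of these 3 genes. For *Cldn1* in naive LCs the intervals of the lowest and highest bin overlapped.

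Partners and regulators of the 5 genes were taken from 5 lists, of which 44 genes are in the tables analysed here. Few of them passed 50 CPM, and their calls stand beside 2.07% of all genes higher and 5.69% lower in naive LCs, and 2.01% higher and 1.90% lower in papain LCs. Of 6 genes of the E-cadherin complex and its binding partners, 2 passed in both libraries (the catenins *Ctnna1* and *Jup*) and none was 2-fold apart between LCs and cDC2s. Of 12 tight junction and EpCAM partners 4 passed, none was higher, and *Cd44*, the hyaluronan receptor, was lower in the naive library. Of 6 repressors and activators of *Cdh1* 4 passed. *Zeb2*, a repressor of *Cdh1*, was lower in LCs in both libraries, at 66.6 CPM in LCs against 300.3 in cDC2s (log2 ratio -2.16, -2.31 to -2.0) and at 88.5 against 206 CPM (-1.21, -1.28 to -1.14). In cDC1s *Zeb2* was lower still, at 33.2 and 43.0 CPM. *Zeb1*, which reads the same E-box, went the other way without reaching 2-fold, at 144 CPM in LCs against 98.6 in cDC2s (0.54, 0.42 to 0.65) and at 152 against 111 CPM (0.45, 0.39 to 0.50). The Snail gene *Snai1* did not pass the floor, at 0.376 CPM in LCs against 0.484 in cDC2s and at 0.654 against 0.704 CPM. *Klf4*, an activator of *Cdh1* in epithelia, was lower in naive LCs, at 107 against 222 CPM, and not in papain LCs, at 135 against 110 CPM (0.30, 0.24 to 0.36). Of 12 TGF beta pathway genes 3 passed in naive and 4 in papain cells, and *Itgb8*, a subunit of an integrin that activates TGF beta, was higher in papain LCs, at 73.9 against 16.2 CPM. *Itgb8* passed the floor only through papain LCs, so nothing is read from its call. None of 8 genes for the uptake of dying cells passed. The median ratio of the genes that passed lay between -0.57 and 0.43 for each list and library, beside -0.04 over all genes. Between papain and naive LCs, *Jup* (83.0 against 30.1 CPM) and *Itgb8* (73.9 against 23.3 CPM) were the genes of these lists called, both higher in the papain library, beside 5.17% of all genes. Both passed the floor only through papain LCs, so nothing is read from these calls.

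With no floor, 4 of the 44 list genes were at least 2-fold higher and 2 lower in LCs than in cDC2s in both libraries (*Zeb2* and *Axl* were the lower ones), beside 1.95% and 1.01% of all 18049 genes, many of which had few UMIs or none. *Tjp1*, the scaffold protein ZO-1 of tight junctions, was at 11.1 CPM in LCs against 0.226 in cDC2s (naive) and at 6.76 against 0.102 (papain). *Ocln*, the tight junction protein occludin, was at 16.4 against 0.968 and at 11.3 against 0.316 CPM. *St14*, the membrane protease matriptase, which cleaves EpCAM, was at 20.1 against 1.42 and at 28.3 against 1.40 CPM. For *Tjp1* and *Ocln*, cDC1s were at or under 1 CPM like cDC2s, whereas *St14* was at 3.69 and 8.14 CPM in cDC1s. As a class, LCs in the node therefore had UMIs of *Tjp1*, *Ocln*, *Cldn1* and *Epcam*. Whether single LCs held those of *Tjp1* or *Ocln* together with *Epcam* was not tested. *Tgfb2*, a TGF beta ligand, was at 4.70 against 0.904 and at 5.50 against 1.06 CPM. It was not particular to LCs, as cDC1s had 4.42 and 6.18 CPM, with intervals that overlapped those of LCs. *Axl*, a receptor for the uptake of dying cells, was lower in LCs, at 1.13 against 8.07 and at 0.599 against 2.38 CPM.

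**Figure D4:**
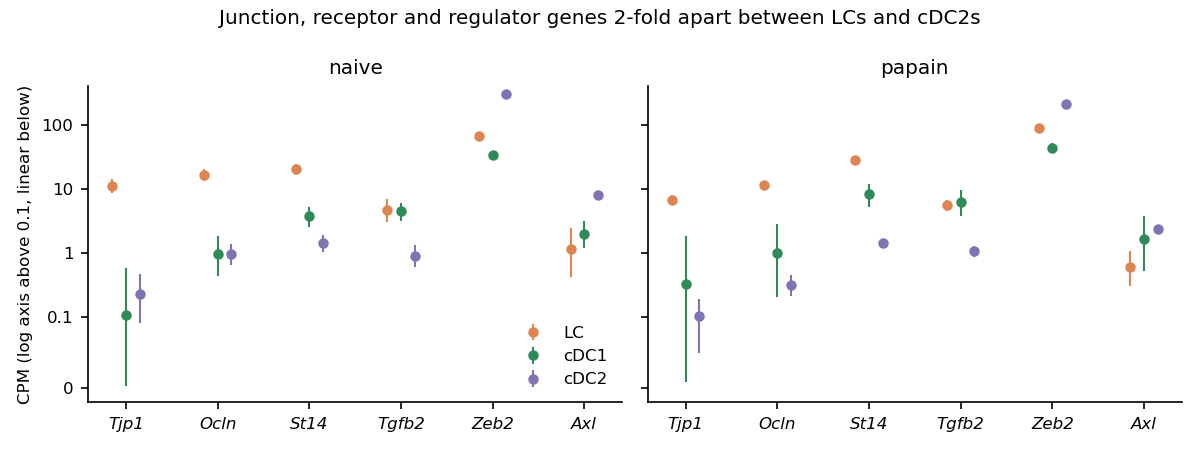
CPM of 6 genes of the lists that were at least 2-fold apart between LCs (orange) and cDC2s (purple) in the same direction in both libraries, with cDC1s (green); the axis is logarithmic above 0.1 and linear below, and bars are exact Poisson 95% intervals. *Tjp1*, *Ocln* and *St14* are highest in LCs in both panels, and *Zeb2* is highest in cDC2s, at 300.3 and 206 CPM.

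The genes whose levels were most like those of a member were sought over 10 groups, the 5 classes in 2 libraries, among 3288 genes with at least 50 CPM in at least 1 group. For *Epcam* these were *Pcm1* (Pearson's r of log2 CPM plus 1 of 0.96), *Acbd5* (0.95) and *Gem* (0.94). For *Cd207* they were *Fam189a2* (0.95), *Serpinb6a* (0.95) and *Fam110a* (0.93). *Fam189a2* was almost as sharply bound to LCs, at 50.8 CPM in LCs, 2.21 in cDC1s and 0.452 in cDC2s of the naive library and at 38.1, 1.95 and 0.449 CPM in the papain library. For *Mfge8* they were *Yes1* (0.97), a Src family kinase at 89.7, 77.9 and 21.9 CPM in naive LCs, cDC1s and cDC2s, *Cep57* (0.95) and *Esyt2* (0.94). For *Cldn1* they were *Nrip1* (0.93), *Olfr109* (0.92) and *Gdap10* (0.91), and for *Cdh1* *Usp34* (0.94), *Pkn2* (0.93) and *Gem* (0.93). Among the 5 members themselves r ranged from 0.74 (*Cd207* and *Cldn1*) to 0.92 (*Cd207* and *Mfge8*). The 10 groups share libraries, and 6 of them are cDC2s, so these values describe the order of the classes.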

How the data were processed

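CITE-seq data of 1 naive and 1 papain library were used. The members and the lists were chosen with earlier results of these data known. Per the labels and methods the authors ran Cell Ranger 3.0.1 on mm10 and Partek Flow. The deposited expression values are log2 of CPM plus 1. Dividing each cell by its smallest step gave back UMIs, 100% of them whole within 0.02, for 3471 naive and 7596 papain cells (2682 to 57378 UMIs each). Antibody values were deposited as a natural log (ln) taken after an offset was added. The numbers of expressed genes and antibody totals deposited by the authors are counts. The authors' class was the same in both tables for 3042 and 7306 cells, and 2 barcodes occurred in both libraries. Doublets were not removed; leaving out the deepest 5% of cells is an alternative. CPM were summed per class, with exact Poisson intervals, exact Clopper-Pearson intervals for shares and exact conditional intervals for ratios (pseudocount 1 CPM), tested on simulated data. No p-value was computed, since each condition is 1 library. Genes were named by rule: the 5 members and 3 most similar genes per member. By rule, list genes 2-fold apart between LCs and cDC2s in the same direction in both libraries were also named. *Cd44*, *Zeb1*, *Klf4*, *Itgb8*, *Jup*, *Ctnna1* and *Snai1* were named after their values were seen. Python 3.11.15, numpy 2.4.6, scipy 1.17.1 and scikit-learn 1.9.0 were used.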

Additional observations from a re-analysis of the deposited data

Results flagged for a closer look

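*Epcam* moved in opposite directions between the libraries: it was higher in papain than in naive LCs (log2 ratio 0.61) and lower in cDC1s (-1.83) and in cDC2s (-0.97), with counting intervals clear of 0 in all 3 classes. In T transcript droplets, the background, it was also lower in the papain library, at 2.36 against 11.5 CPM, and the part of this background was not tested. With 1 library per condition the difference between classes was not tested. No group had the 4 samples needed to look for a sample far from the others.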

How the results depend on the processing

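No paired analysis was possible because each condition is 1 library and the labels give no shared replicate numbers. Of 360 member ratios under 8 alternatives, 3 changed sign, none of them at 2-fold: *Mfge8* in naive LCs against cDC1s with the mixture classes, and *Cd207* in cDC2s between libraries with the mean over cells (0.00) and without the deepest 5% of cells (0.02). A pseudocount of 10 CPM moved ratios by -2.93 to 1.04, the mixture classes by -1.76 to 1.82, and scaling by -0.10 to 0.10. The papain LC with most *Epcam* UMIs and the bins of CD326 and CD103 within other sets of cells were looked at after seeing the data.

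The number of members at least 2-fold higher at any level changed with the pseudocount of 10 CPM to 3 (naive LCs against cDC2s), 1 (naive cDC1s against cDC2s) and 0 (papain cDC1s against cDC2s), and the number lower in the papain library to 0 in LCs and 0 in cDC2s. With the mixture classes it was 0 for naive LCs against cDC1s, 5 for naive cDC1s against cDC2s, and 0 lower in papain LCs; with scaling 2 were lower in papain cDC2s. The mixture classes gave 24 and 34 genes 2-fold apart between LCs and cDC2s (naive, papain), 52 between papain LCs and cDC1s, 34 between papain cDC1s and cDC2s, and 0 and 0 list genes lower in LCs. Their papain LC component held 1432 cells, of which 833 were LCs by the authors' class. The papain cDC1 component held 559 cells, of which 233 were cDC1s by that class. With a floor of 10 CPM, and with none, 746 and 1773 genes were 2-fold apart between naive LCs and cDC2s, 322 and 784 in the papain library, 751 and 1885 between naive LCs and cDC1s, 894 and 2233 in the papain library, 879 and 1648 between naive cDC1s and cDC2s, 700 and 1606 in the papain library, and, between libraries, 470 and 1049 in LCs, 507 and 1636 in cDC1s and 458 and 894 in cDC2s. Pearson's r of *Epcam* and CD326 was 0.24 in naive cDC1s and 0.30 in naive cDC2s with thinned *Epcam* UMIs, and 0.42 in papain LCs with the share of antibody counts. Depth limits *Cdh1*, with 0 to 25 UMIs per class, and *Cd207* in the cDC2 classes, with 2 to 8 UMIs.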
